A study of Mus musculus with 17 samples.

Results

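The genes described here are the axon guidance ligands and receptors of the mouse: the class 3 to 7 semaphorins, plexins, neuropilins, Eph receptors, ephrins, Slits, Robos, netrins, the Unc5 receptors with Dcc, and Draxin. They were taken by gene symbol among protein-coding genes, and kept with a count of 10 or more in at least 3 libraries. All 70 genes that fit the symbols passed that minimum, of 46200 genes with any count, and all 70 entered the tests. They were 20 semaphorins, 9 plexins, 2 neuropilins, 14 Eph receptors, 8 ephrins, 3 Slits, 4 Robos, 4 netrins, 5 Unc5 and Dcc genes, and Draxin.

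The study sequenced bulk RNA of lumbar (L4 to L6) dorsal root ganglia (DRG), which hold the cell bodies of sensory neurons with their satellite glia, Schwann cells, vessels and immune cells. Sham surgery was compared with chronic constriction injury (CCI), a neuropathic pain model in which loose ligatures constrict the sciatic nerve, in mice labelled wild type (WT) or Twik1 knockout (KO). Twik1 is the two-pore potassium channel encoded by Kcnk1. The 17 libraries were 5 sham WT, 5 CCI WT, 4 sham KO and 3 CCI KO, the last numbered 2 to 4. Every library carried the label day 30, and the sources used here give no strain, age or allele. The labels do not tie the libraries to separate animals, so each p-value measures the spread between these libraries, which may be technical.

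Guidance cues steer growing axons by attraction or repulsion and remain expressed in the adult nervous system. Semaphorins signal through plexins, with neuropilins as ligand-binding co-receptors for most of class 3; ephrins are membrane-bound ligands of the Eph receptor tyrosine kinases; Slits are secreted ligands of Robos; netrins bind Dcc and Unc5 receptors; Draxin is a secreted protein that binds Dcc and netrin. In sensory neurons these families guide peripheral and central axons during development, and several are studied in nerve injury.

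Each library had 52.52 M to 73.58 M reads counted to genes. Levels below are CPM, read counts scaled to library size. Kcnk1 stood at 94.3 to 139 CPM over the 10 WT libraries and at 75.1 to 114 CPM over the 7 KO libraries. The overlap came from sham KO library 4, at 114 CPM, within the 94.3 to 139 CPM of sham WT. Sham KO libraries 1, 2 and 3 were at 77.9, 75.1 and 91.8 CPM, below every WT library. The CCI groups did not overlap, at 78.3 to 89.0 CPM in KO and 106 to 121 CPM in WT. The RNA level alone therefore does not separate every library by genotype label, and the groups are called knockout-labelled. Sensory neuron markers were high in every library, summing to 9285 to 12476 CPM over 9 genes. Sham KO libraries 1 and 2 stood apart from the other sham libraries. Their Atf3, a transcription factor induced in axotomised neurons, was 141 and 103 CPM, against 11.1 and 13.2 CPM in sham KO libraries 3 and 4 and 9.42 to 16.8 CPM in sham WT. Values without both are given beside the results on the sham KO group below.

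Upstream sequences are shown for 4 of the 11 members that passed a test below, with windows that hold no exon of a coding gene. They are members raised by injury in wild type and, for genotype, the member with the smallest p on the contrast averaged over sham and CCI. The window of Sema6a, which also rose after injury, and those of Efnb1, Sema3b and Slit1 hold no exon either and are not shown. Each is the 250 bases before the start of the canonical transcript, read from GRCm39 on the gene's strand with the GENCODE M39 annotation, and capitals mark CpG dinucleotides. Plxnb3, Epha5 and Sema4f rose after injury in wild type, and Efna1 was higher in the knockout-labelled ganglia.
Plxnb3, X:72800370-72800619, plus strand: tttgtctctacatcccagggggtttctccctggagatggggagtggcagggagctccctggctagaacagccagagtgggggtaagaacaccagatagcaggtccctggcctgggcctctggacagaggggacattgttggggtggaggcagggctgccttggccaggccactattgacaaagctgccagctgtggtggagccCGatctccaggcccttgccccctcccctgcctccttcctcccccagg
Epha5, chr5:84565349-84565598, minus strand: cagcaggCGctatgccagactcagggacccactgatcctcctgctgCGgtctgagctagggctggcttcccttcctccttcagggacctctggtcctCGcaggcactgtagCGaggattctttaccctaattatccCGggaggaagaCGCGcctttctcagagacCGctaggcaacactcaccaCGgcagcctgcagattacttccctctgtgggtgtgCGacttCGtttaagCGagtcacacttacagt
Sema4f, chr6:82916762-82917011, minus strand: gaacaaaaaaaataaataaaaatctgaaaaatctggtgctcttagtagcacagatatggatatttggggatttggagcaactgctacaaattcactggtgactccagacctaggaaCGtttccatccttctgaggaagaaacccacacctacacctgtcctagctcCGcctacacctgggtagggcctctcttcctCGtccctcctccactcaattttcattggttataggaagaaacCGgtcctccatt
Efna1, chr3:89186955-89187204, minus strand: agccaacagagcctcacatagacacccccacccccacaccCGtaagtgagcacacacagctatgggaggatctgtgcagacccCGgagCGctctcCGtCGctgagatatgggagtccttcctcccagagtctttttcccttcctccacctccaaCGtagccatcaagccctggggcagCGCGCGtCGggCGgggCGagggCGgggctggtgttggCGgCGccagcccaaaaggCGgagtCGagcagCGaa

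The windows differed in base composition. Plxnb3 held 1 CpG at 63.2% GC, Sema4f 4 at 44.8%, Epha5 12 at 57.6% and Efna1 18 at 64.4%, beside medians of 8 CpG and 53.2% GC over 21770 protein-coding promoters. An exon of the long noncoding RNA Gm71976 lies in the Epha5 window. The Efna1 window lies inside the annotated span of Efna1 (chr3:89179037-89188449, minus strand), downstream of the outermost 5′ end of that gene. The Draxin window, not printed because it holds an exon of the divergent neighbour Mad2l2, had 36 CpG at 79.6% GC. Both strands of each window were searched for the AP-1 motif TGANTCA and the cAMP response element TGACGTCA, which do not overlap each other. AP-1 letters were found in 3 of 70 member windows (4.29%; Unc5d, Sema3c and Sema4c) and in 6.17% of all promoters. The cAMP response element was found in 2 of 70 (2.86%; Epha2 and Sema4c) and in 1.69% of all. None of the 11 members that passed a test held either motif in this window.

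Levels per kb of exon set genes of unlike length side by side. The divisor is the merged length of all annotated exons, 32191 bases for Slit2 and 9020 for Slit1. It can exceed the length of the transcript expressed, so orders between genes are approximate. On this scale, averaged over the 17 libraries, the semaphorins were led by Sema3b, a secreted class 3 ligand, at 48.1 CPM per kb, followed by Sema4f at 9.28 and the membrane-anchored Sema7a at 7.08 CPM per kb. Among plexins, Plxnc1, the receptor for Sema7a, was highest at 19.1 CPM per kb, ahead of Plxnd1 at 6.75 and Plxna4 at 5.87 CPM per kb. The ligand Efna1 stood at 16.3 CPM per kb, above Efna5 at 5.30 and Efnb1 at 5.09 CPM per kb. No other member averaged above 10 CPM per kb.

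The Eph receptors were led by Ephb6, a family member without kinase activity, at 8.36 CPM per kb, with Ephb4 at 2.23 and Ephb3 at 1.47 CPM per kb. Nrp1 and Nrp2 stood at 5.12 and 4.21 CPM per kb. Slit1 was at 5.00 CPM per kb and its receptor Robo2 at 4.67 CPM per kb, and both were the highest of their families. Slit2 and Slit3 followed at 0.691 and 0.118 CPM per kb, and Robo4 and Robo1 at 1.07 and 0.371 CPM per kb. Netrins were low, with Ntn4 at 1.35, Ntn5 at 1.08 and Ntn1 at 0.637 CPM per kb. Part of the exons of Ntn5 overlaps Sec1 (32.9%), and part of those of Ephb6 overlaps Trpv6 (14.7%). The library kit does not mark strand, so reads from these overlaps cannot be assigned and both levels are less certain. Unc5a, at 3.56 CPM per kb, led the Unc5 and Dcc genes, with Unc5b at 0.657 and Unc5c at 0.396 CPM per kb.

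Dcc, the shared receptor of netrin and Draxin, was close to the bottom at 0.0333 CPM per kb, with between 5 and 75 reads per library. Draxin itself averaged 0.437 CPM per kb. Sema3a, the founding class 3 repellent, was lowest at 0.0127 CPM per kb and had no read in 4 libraries. The median member was at 1.30 CPM per kb, against 1.73 CPM per kb over 18564 protein-coding genes with any count.

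**Figure D1:**
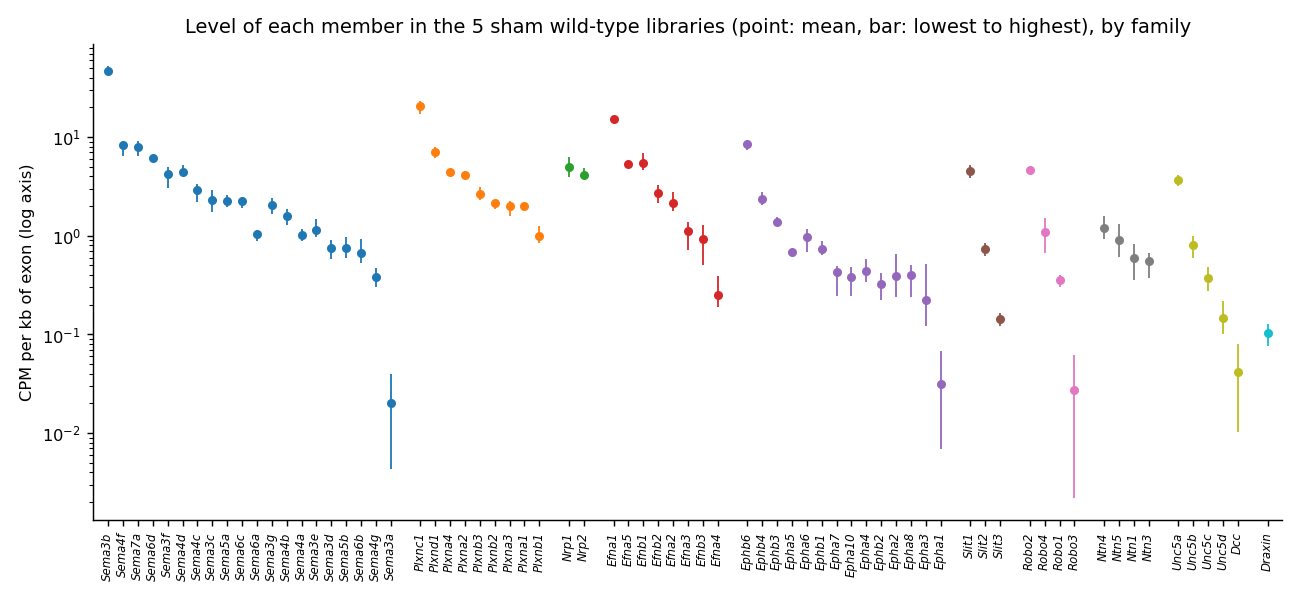
Level of each of the 70 genes in the 5 sham WT libraries, in CPM per kb of exon on a log axis, grouped and coloured by family; points are means and bars run from the lowest to the highest library. Sema3b, Plxnc1 and Efna1 lie above the rest, and Sema3a, Epha1, Robo3 and Dcc lie lowest.

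Chronic constriction injury in wild type was compared with sham in wild type to ask which guidance genes respond to the nerve lesion. Draxin, Sema6a, Plxnb3, Epha5 and Sema4f rose and Plxna2 fell. Of 70 genes, 5 rose and 1 fell by edgeR's quasi-likelihood test at a Benjamini-Hochberg adjusted p under 0.05. That is 8.57% of the members, beside 3.06% of all 23972 genes tested, of which 2.34% rose and 0.713% fell. Here and below, the members are all protein-coding while the genes tested include other gene types, so the 2 shares are not of like genes. At an unadjusted p under 0.05 there were 20 members and 13.8% of all genes. The median log2 fold change was 0.03 over the members and -0.01 over all genes tested.

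Draxin (ENSMUSG00000029005; chr4:148182894-148215155, minus strand, GRCm39) was at 0.658, 0.611, 0.488, 0.396 and 0.556 CPM in sham WT libraries 1 to 5. In CCI WT libraries 1 to 5 it was at 3.18, 7.33, 3.49, 6.0 and 4.74 CPM. Every injured library was above every sham library, from 29 to 36 reads in sham WT to between 182 and 420 reads in CCI WT. The log2 fold change was 3.19 ± 0.39 (SE; adjusted p = 7.52e-05), a 9.13-fold rise. Its level stayed low even then: the highest library reached 1.41 CPM per kb.

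Sema6a (ENSMUSG00000019647; chr18:47368665-47502216, minus strand), a transmembrane class 6 semaphorin that binds plexins A2 and A4, had the next largest rise. It was at 10.2, 10.9, 10.1, 8.43 and 9.67 CPM in sham WT and at 32.3, 38.3, 22.3, 44.3 and 37.1 CPM in CCI WT. The groups did not overlap, and CCI WT library 3 was the lowest injured library. The rise was 3.54-fold (log2 fold change 1.82 ± 0.24, adjusted p = 0.000842).

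Sema4f (ENSMUSG00000000627; chr6:82887696-82916761, minus strand), a transmembrane class 4 semaphorin, rose less. It was at 57.2, 59.8, 60.3, 57.3 and 42.7 CPM in sham WT and at 74.2, 70.4, 67.0, 71.8 and 65.4 CPM in CCI WT. The groups did not overlap, and sham WT library 5 was the lowest of all. That library also held the highest level of Mobp, an oligodendrocyte myelin gene among the 5 spinal cord glia markers, at 66.4 CPM against 1.38 to 4.64 CPM in the other sham WT libraries; the list summed to 84.6 CPM there, and its part in the Sema4f result was not tested. The log2 fold change was 0.33 ± 0.08 (adjusted p = 0.0242), and the call was lost when any of sham WT library 5 or CCI WT libraries 1, 2 or 4 was left out, at 0.25 to 0.36 over all single omissions.

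Among receptors, Plxnb3 (ENSMUSG00000031385; X:72800620-72816120, plus strand), a receptor for Sema5a, rose 1.62-fold. It was at 20.3, 16.6, 18, 16.3 and 15.2 CPM in sham WT and at 30.0, 28.0, 24.5, 29.6 and 27.7 CPM in CCI WT, with no overlap. The log2 fold change was 0.69 ± 0.10 (adjusted p = 0.000256). Its ligand Sema5a was at 46.3 ± 4.66 CPM (SD, n = 5) in sham WT and 48.0 ± 7.22 CPM (SD, n = 5) in CCI WT, and did not pass the test.

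Epha5 (ENSMUSG00000029245; chr5:84202620-84565348, minus strand), a receptor for A-type ephrins, rose 1.5-fold. It was at 12.8, 14.3, 14.9, 14.8 and 14.4 CPM in sham WT and at 21.2, 23.4, 13.9, 23.8 and 24.8 CPM in CCI WT. The groups overlapped through CCI WT library 3, which lay inside the sham range; the other 4 injured libraries were above it. This was a log2 fold change of 0.59 ± 0.12 (adjusted p = 0.00747).

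Plxna2 (ENSMUSG00000026640; chr1:194300526-194499177, plus strand), a receptor for Sema6a, was the member that fell. It was at 67.1, 78.8, 66.4, 77.5 and 67.0 CPM in sham WT and at 62.9, 54.7, 63.5, 54.0 and 54.3 CPM in CCI WT. The groups did not overlap, and their nearest libraries were at 66.4 and 63.5 CPM. The log2 fold change was -0.30 ± 0.08 (adjusted p = 0.0305). It lost the call in 5 of the 17 fits that each left out 1 library, those without sham WT libraries 2 or 4 or CCI WT libraries 2, 4 or 5, with values of -0.34 to -0.26 and an adjusted p of up to 0.104.

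**Figure D2:**
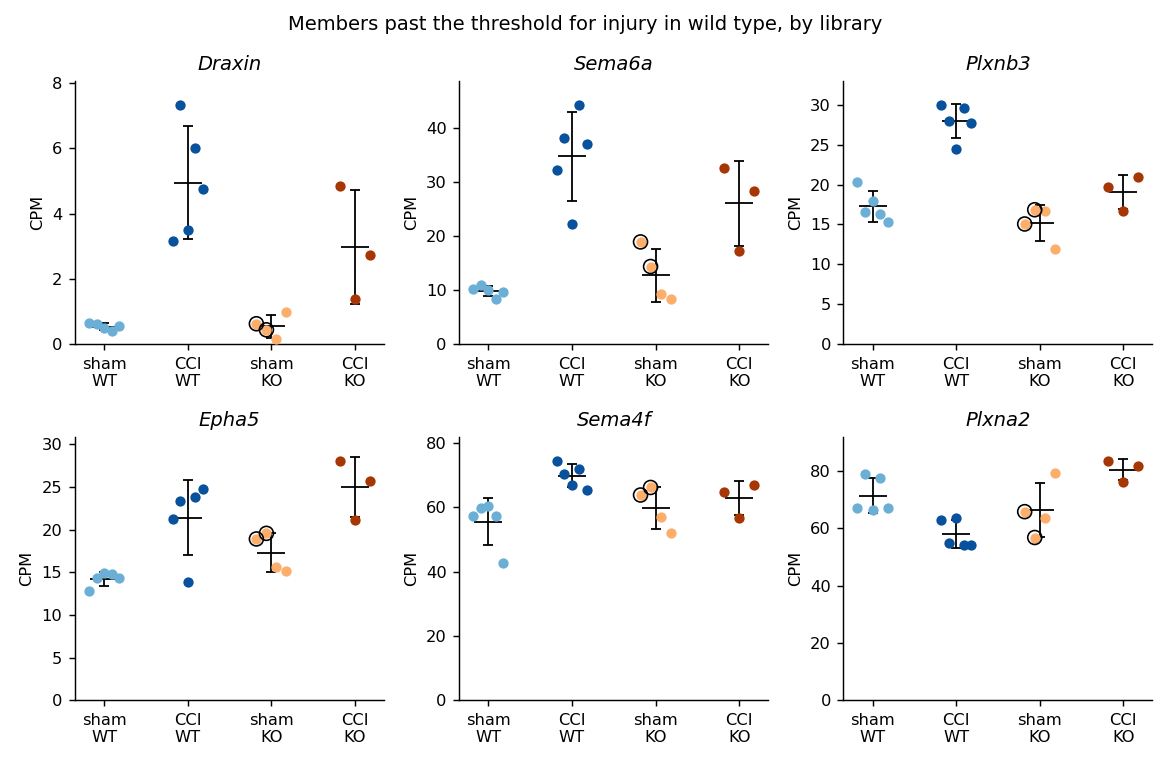
The 6 genes that passed the test for injury in wild type, in CPM by library (points), with the mean and SD of each group (bars); rings mark sham KO libraries 1 and 2. Draxin, Sema6a, Plxnb3 and Sema4f separate all 5 injured WT libraries from all 5 sham WT libraries upward and Plxna2 downward, while 1 injured library lies with the sham WT libraries for Epha5.

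Draxin, Sema6a, Plxnb3 and Epha5 kept the call in all 17 single omissions. The other 64 members did not pass. Plxna4, which also binds Sema6a, separated the WT groups without passing, at 59.6 to 69.8 CPM in sham and 75.1 to 95.8 CPM in CCI (log2 fold change 0.42 ± 0.18, adjusted p = 0.289). It passed when sham KO libraries 1 and 2 were left out of the fit (0.43, adjusted p = 0.00419). Closest to the threshold were Sema4c at 0.36 ± 0.11 (adjusted p = 0.0633) and Ephb3 at 0.41 ± 0.13 (adjusted p = 0.0992). Sema3b, Sema4a, Plxnb2 and Epha8 followed, with log2 fold changes of 0.34, 0.34, 0.27 and -0.92. In all, 6 members separated the groups, 5 higher and 1 lower, where 3.44% and 1.4% of all genes tested did.

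No ephrin, Slit, Robo, netrin, neuropilin, Unc5 gene or Dcc passed. Their log2 fold changes in wild type ran from -0.53 (Dcc) to 1.11 (Efna4), both with few reads. Among members with more reads, Robo2 was at 111 ± 6.04 CPM (SD, n = 5) in sham and 103 ± 2.34 CPM (SD, n = 5) in CCI. Nrp1 was at 76.0 ± 14.1 and 73.2 ± 3.27 CPM, and Slit1 at 40.5 ± 5.35 and 43.1 ± 4.37 CPM, in the same order. Summed over its 20 genes per kb, the semaphorin family ran from 94.1 to 101 CPM per kb in sham WT and from 106 to 125 CPM per kb in CCI WT, a sum in which Sema3b has the largest share.

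In bulk RNA, fewer cells of a type and less RNA per cell cannot be told apart. Over the same contrast, all 10 injured neuron markers and 4 of 8 macrophage markers passed higher, and the macrophage sum went from 31.3 to 51.5 CPM in sham WT to 43.4 to 86.2 CPM in CCI WT. Satellite glia markers, 2 of 6 of which passed higher, went from 4164 to 4560 CPM to 4727 to 5045 CPM, and 1 of 7 endothelial and pericyte markers passed higher; the part of these cells in the rise of the members was not tested. File names hold 1 number common to the 9 sham libraries and another for each injured group. No source used here explains it, and if it marks a batch, batch cannot be told apart from injury, from genotype among the injured ganglia or from the interaction. Genotype in sham lies within 1 number.

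Injury in the knockout-labelled ganglia called 1 member, Draxin, and none lower. All genes tested had 0.0709% higher and 0.0125% lower in this contrast, 0.0834% in all. At an unadjusted p under 0.05 there were 17 members and 8.63% of all genes. Draxin was at 0.627, 0.441, 0.152 and 0.977 CPM in sham KO libraries 1 to 4, with 8 to 59 reads, and at 4.85, 1.38 and 2.74 CPM in CCI KO libraries 2 to 4. The groups did not overlap, and CCI KO library 3 was the injured library nearest to the sham range. The log2 fold change was 2.43 ± 0.45 (adjusted p = 0.0449), or 5.39-fold.

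Leaving out 1 library at a time gave log2 fold changes of 1.90 to 2.86 and ended the call in 13 of 17 fits, which were those without sham KO 1, 2 or 3, CCI KO 2 or 4, sham WT 1, 2, 4 or 5, or CCI WT 1, 2, 4 or 5. Without sham KO libraries 1 and 2 together the value was 2.38 (adjusted p = 0.119), and limma-voom gave 2.55 (adjusted p = 0.121).

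The other members raised in wild type had smaller or similar estimates that did not pass. Sema6a was at 19.0, 14.4, 9.31 and 8.31 CPM in sham KO and at 32.7, 17.3 and 28.4 CPM in CCI KO (log2 fold change 1.04 ± 0.28, adjusted p = 0.266). Its sham KO values were spread, with libraries 1 and 2 above every sham WT library. Without those 2 libraries the value was 1.57 (adjusted p = 0.0231). Plxna4 changed in the same way, from 0.30 ± 0.21 (adjusted p = 0.785) to 0.80 (adjusted p = 0.00481).

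Epha5 was at 15.2 to 19.6 CPM in sham KO and at 21.2 to 28.0 CPM in CCI KO, without overlap (log2 fold change 0.53 ± 0.15, adjusted p = 0.235). Plxnb3 was at 12 to 16.8 CPM and 16.7 to 20.9 CPM, with CCI KO library 3 below sham KO libraries 2 and 3 (0.33 ± 0.12, adjusted p = 0.398). Sema4f overlapped, at 51.9 to 66.1 CPM and 56.7 to 66.8 CPM (0.07 ± 0.10, adjusted p = 0.921). Sema3c, a class 3 ligand, was at 10.2 to 18.7 CPM and 20.4 to 23.1 CPM (0.59 ± 0.17, adjusted p = 0.244). Without sham KO libraries 1 and 2 none of these passed: Epha5 was at 0.70 (adjusted p = 0.0795), Plxnb3 at 0.42 (adjusted p = 0.300), Sema4f at 0.20 (adjusted p = 0.598) and Sema3c at 0.75 (adjusted p = 0.0678). Of the 10 injured neuron markers, none passed for injury in the knockout label with all libraries and 7 passed higher without these 2. In all, 4 members lay higher and 2 lower without overlap, beside 4.41% and 3.15% of all genes tested.

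Sema3a had the lowest log2 fold change of all in both genotypes, -2.63 ± 1.13 and -3.55 ± 1.48, from very few reads. Its counts were 21, 36, 4, 14 and 18 in sham WT, 1, 12, 1, 0 and 0 in CCI WT, 1, 31, 21 and 30 in sham KO, and 0, 0 and 6 in CCI KO. Neither contrast passed, with an adjusted p of 0.268 and 0.476, and the groups overlapped in both. Over the single omissions the estimate ran from -4.89 (without CCI WT library 2, adjusted p = 0.0538) to -2.22 in wild type, and from -7.46 (without CCI KO library 4) to -3.01 in the knockout label, and none passed. The latter contrast was at -3.82 (adjusted p = 0.379) without sham KO libraries 1 and 2.

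**Figure D3:**
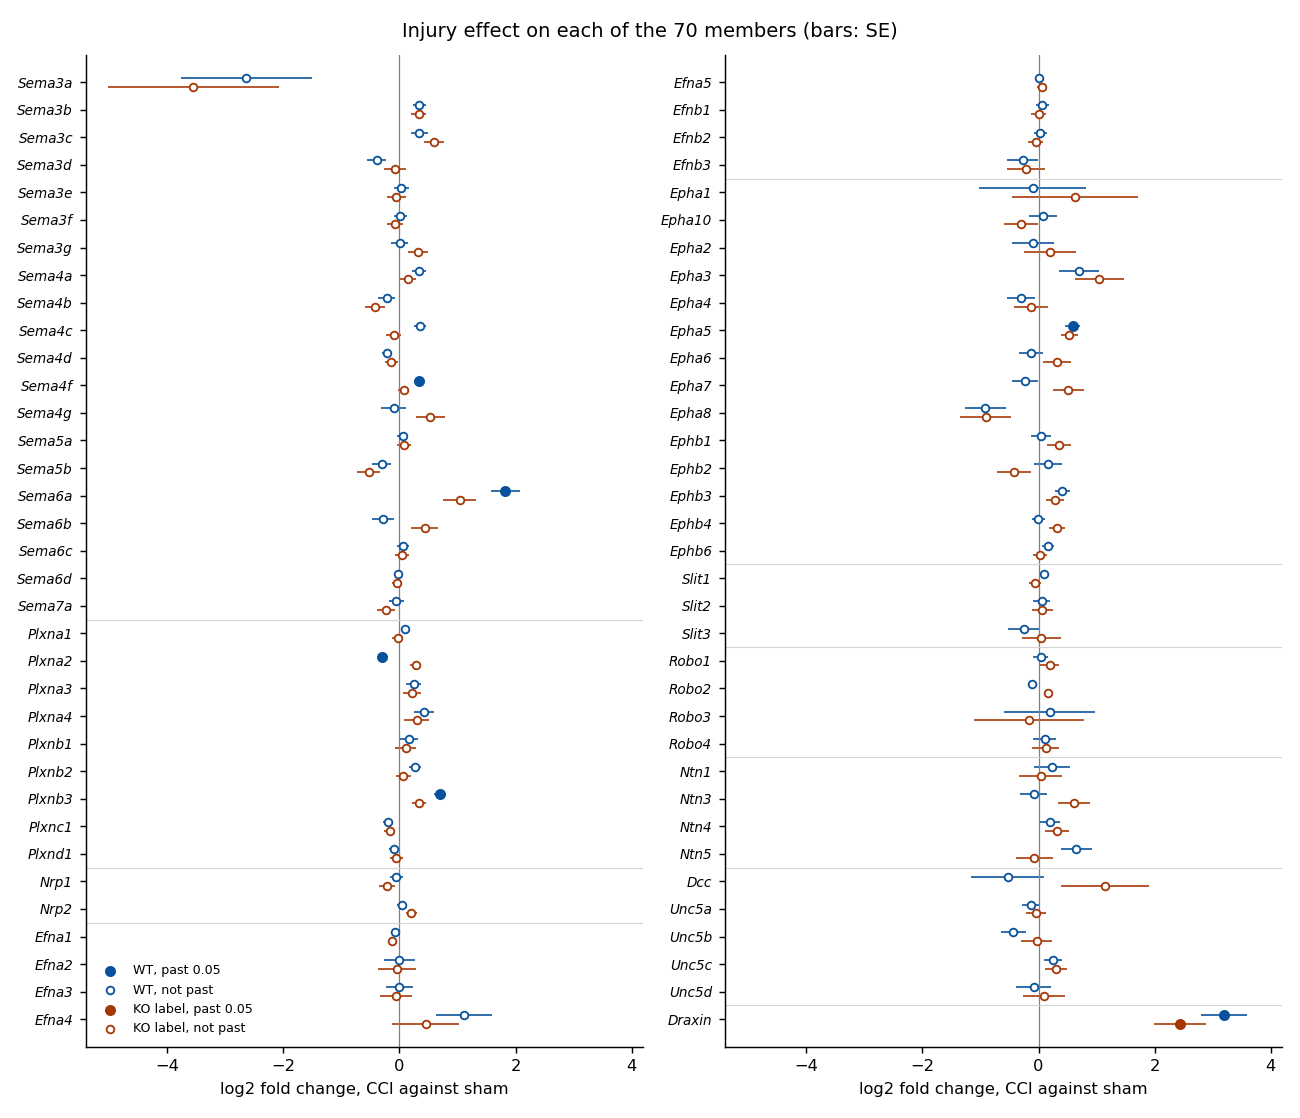
Log2 fold change of CCI against sham for each of the 70 genes, in wild type (blue) and knockout-labelled (red) ganglia, with SE bars; filled points passed an adjusted p of 0.05 and lines part the families. Filled points are Sema4f, Sema6a, Plxna2, Plxnb3, Epha5 and Draxin in wild type and Draxin alone in the knockout label.

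The interaction asks whether the injury effect differed between the genotype labels. No member passed, and 0 of 23972 genes did (0%), by edgeR; at an unadjusted p under 0.05 there were 1408 genes (5.87%) and 6 members. Plxna2 came first among members, with an injury effect of -0.30 ± 0.08 in wild type and 0.28 ± 0.09 in the knockout label. Their difference was 0.58 ± 0.12 (adjusted p = 0.362). DESeq2 called this gene at 0.58 (adjusted p = 0.0300), limma-voom at 0.64 (adjusted p = 0.0461) and edgeR without the low-count filter at 0.58 (adjusted p = 0.000331). Plxna2 was the single member called in each, and the share of all genes called in these fits is not given here. Without sham KO libraries 1 and 2 edgeR gave Plxna2 at 0.47 (adjusted p = 0.931). Robo2 (0.28 ± 0.10), Sema4c (-0.45 ± 0.17), Sema6b (0.71 ± 0.30), Plxnb3 (-0.36 ± 0.16) and Epha7 (0.75 ± 0.35) followed, with an adjusted p of 0.696 to 0.848. For Draxin the difference was -0.76 ± 0.58 and for Sema6a -0.79 ± 0.37, and neither passed. With sham KO libraries 1 and 2 left out, Draxin was at -0.81 and Sema6a at -0.26, and the others named here at 0.22 (Robo2), -0.38 (Sema4c), 0.45 (Sema6b), -0.28 (Plxnb3) and 1.07 (Epha7), none of them past the threshold.

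Genotype among the injured ganglia was compared between CCI KO and CCI WT. Plxna2 was higher and Plxnb3 lower in the knockout-labelled libraries, 1 member each way, beside 0.184% of all genes higher and 0.501% lower (0.684% in all). An unadjusted p under 0.05 was reached by 14 members and 8.78% of all genes. Plxna2 was at 83.4, 76.3 and 81.7 CPM in CCI KO against 54.0 to 63.5 CPM in CCI WT, without overlap. The file-name number also differs between these groups. The log2 difference was 0.48 ± 0.09 (adjusted p = 0.00810), or 1.39-fold, and it lost the call in 1 of 17 single omissions, without CCI KO library 4 (adjusted p = 0.0559). In sham the same gene was at 65.8, 56.8, 63.5 and 79.4 CPM in KO, spanning the WT values (-0.10 ± 0.08, adjusted p = 0.722; 0.01, adjusted p = 0.996, without sham KO libraries 1 and 2).

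Plxnb3 was at 19.7, 16.7 and 20.9 CPM in CCI KO against 24.5 to 30.0 CPM in CCI WT, without overlap. The log2 difference was -0.55 ± 0.12 (adjusted p = 0.0239). It lost the call when any 1 of CCI KO libraries 2, 3 or 4 or CCI WT libraries 1, 2, 4 or 5 was left out, with an adjusted p of up to 0.244. Of members that did not pass, Robo2 came closest, at 139, 122.2 and 111 CPM in CCI KO against 101 to 106 CPM in CCI WT (0.27 ± 0.07, adjusted p = 0.0895). Ephb2, an Eph receptor for B-type ephrins, was at 2.35 ± 0.204 CPM (SD, n = 3) against 4.62 ± 1.08 CPM (SD, n = 5), a log2 difference of -0.97 ± 0.29 (adjusted p = 0.151). Skeletal muscle marker sums (104 to 175 CPM in CCI KO, 4.37 to 65.8 CPM in CCI WT) and fibroblast marker sums also separated these groups, and their part in the Plxna2 and Plxnb3 results was not tested. In this contrast 3 members lay higher and 5 lower without overlap, beside 4.15% and 4.37% of all genes.

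Genotype in sham ganglia was compared between sham KO and sham WT. Efna1 was higher and Sema6b lower, beside 0.259% of all genes higher and 0.743% lower (1% in all). An unadjusted p under 0.05 was reached by 16 members and 11.4% of all genes. Efna1 (ENSMUSG00000027954; chr3:89179037-89188449, minus strand), a membrane-anchored ligand of EphA receptors, was at 49.6, 51.4, 56.8, 53.4 and 52.5 CPM in sham WT and at 65.6, 73.3, 60.7 and 58.2 CPM in sham KO. The groups did not overlap, and sham KO libraries 1 and 2 were the highest. The log2 difference was 0.29 ± 0.07 (adjusted p = 0.0338), and 0.18 (adjusted p = 0.600) without those 2 libraries. It lost the call in 5 of 17 single omissions, those of sham KO 1 or 2 or sham WT 1, 2 or 5.

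Sema6b (ENSMUSG00000001227; chr17:56430078-56449459, minus strand), a transmembrane class 6 semaphorin, was at 6.20, 4.50, 4.61, 3.74 and 3.57 CPM in sham WT and at 1.78, 2.22, 2.55 and 3.44 CPM in sham KO. All sham KO libraries were below the WT range, library 4 by a narrow margin. The log2 difference was -0.85 ± 0.21 (adjusted p = 0.0452), and the call was lost in 15 of 17 single omissions, all but those of sham WT library 4 and sham KO library 4. The value was -0.59 (adjusted p = 0.586) without sham KO libraries 1 and 2. Sema4g (-0.90 ± 0.23, adjusted p = 0.0527) and Slit1 (0.32 ± 0.09, adjusted p = 0.0778) came next; without sham KO libraries 1 and 2 they were at -0.70 (adjusted p = 0.560) and 0.35 (adjusted p = 0.310). Among all members 4 lay higher and 3 lower without overlap, beside 1.13% and 2.08% of all genes.

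Averaged over sham and CCI, 2 members were higher in the knockout-labelled ganglia, Efna1 and Slit1, and 3 were lower, Plxnb3, Efnb1 and Sema3b. The share of all genes past the threshold was 0.688% higher and 1.86% lower (2.55% in all). An unadjusted p under 0.05 was reached by 27 members and 13.3% of all genes. Efna1, whose CCI KO libraries were at 56.6, 59.4 and 61.8 CPM against 47.2 to 52.7 CPM in CCI WT, differed by 0.26 ± 0.05 (adjusted p = 0.00250). It kept the call in all 17 single omissions and without sham KO libraries 1 and 2 (0.21, adjusted p = 0.0292).

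Efnb1 (ENSMUSG00000031217; X:98179680-98205454, plus strand), a transmembrane ligand of EphB receptors, was at 27.2, 18.5, 22.8, 21.9 and 19.2 CPM in sham WT and at 15.7, 16.8, 20.0 and 16 CPM in sham KO. In CCI it was at 22, 21.5, 21.0, 22.5 and 27.6 CPM in WT and at 15.5, 17.2 and 18.8 CPM in KO. The injured groups did not overlap, and in sham 1 KO library lay within the WT range. The mean difference was -0.39 ± 0.09 (adjusted p = 0.0102). It kept the call in all 17 single omissions, and was -0.35 (adjusted p = 0.0720) without sham KO libraries 1 and 2.

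Slit1 (ENSMUSG00000025020; chr19:41588676-41732268, minus strand), a secreted ligand of Robos, was at 47.1, 36.8, 34.9, 45.2 and 38.5 CPM in sham WT and at 51.8, 47.8, 55.5 and 47.3 CPM in sham KO. The injured libraries overlapped, at 37.1 to 48.0 CPM in WT and 46.7 to 50.2 CPM in KO. The mean difference was 0.25 ± 0.06 (adjusted p = 0.0347). The call was lost in 10 of 17 single omissions, those without sham KO 1 or 3, sham WT 2 or 5, any CCI KO library or CCI WT 1, 2 or 5, and without sham KO 1 and 2 together (0.26, adjusted p = 0.0677).

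Sema3b (ENSMUSG00000057969; chr9:107474872-107486456, minus strand) was at 244, 209.6, 235, 215 and 261 CPM in sham WT and at 152, 159.7, 216 and 188 CPM in sham KO. In CCI it was at 296, 264, 251, 317 and 347 CPM in WT and at 258, 205 and 213 CPM in KO. The pairs of groups overlapped in sham and in CCI. The mean difference was -0.38 ± 0.09 (adjusted p = 0.0242), lost in 8 of 17 single omissions, those without sham KO 2, sham WT 1, 3 or 5, CCI KO 3 or 4, or CCI WT 1 or 4. Without sham KO 1 and 2 it was -0.29 (adjusted p = 0.138). Plxnb3 differed by -0.37 ± 0.08 (adjusted p = 0.00956), lost without CCI KO library 3 (adjusted p = 0.0556) and kept without sham KO libraries 1 and 2 (-0.41, adjusted p = 0.0175).

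Of the members just outside the threshold on this mean contrast, Sema7a (-0.36 ± 0.10, adjusted p = 0.0505), Epha2 (-1.07 ± 0.30, adjusted p = 0.0543), Ephb2 (-0.68 ± 0.19, adjusted p = 0.0558) and Sema4g (-0.59 ± 0.17, adjusted p = 0.0616) were all lower in the knockout label by estimate. Without sham KO libraries 1 and 2 they were at -0.23 (adjusted p = 0.280), -0.95 (adjusted p = 0.205), -0.76 (adjusted p = 0.0463) and -0.48 (adjusted p = 0.271), in the same order. Sema7a was at 17.0 and 17.8 CPM in those libraries, below the 21.4 to 30.3 CPM of sham WT, and at 25.5 and 26.6 CPM in sham KO libraries 3 and 4, within it. Plxnc1, the Sema7a receptor, was at 178 ± 22.9 CPM (SD, n = 5) in sham WT and 169.8 ± 18 CPM (SD, n = 4) in sham KO, and did not pass. Part of the exons of Sema4g overlaps Mrpl43 (12.7%), and the library kit does not mark strand, so reads from such overlaps cannot be assigned.

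**Figure D4:**
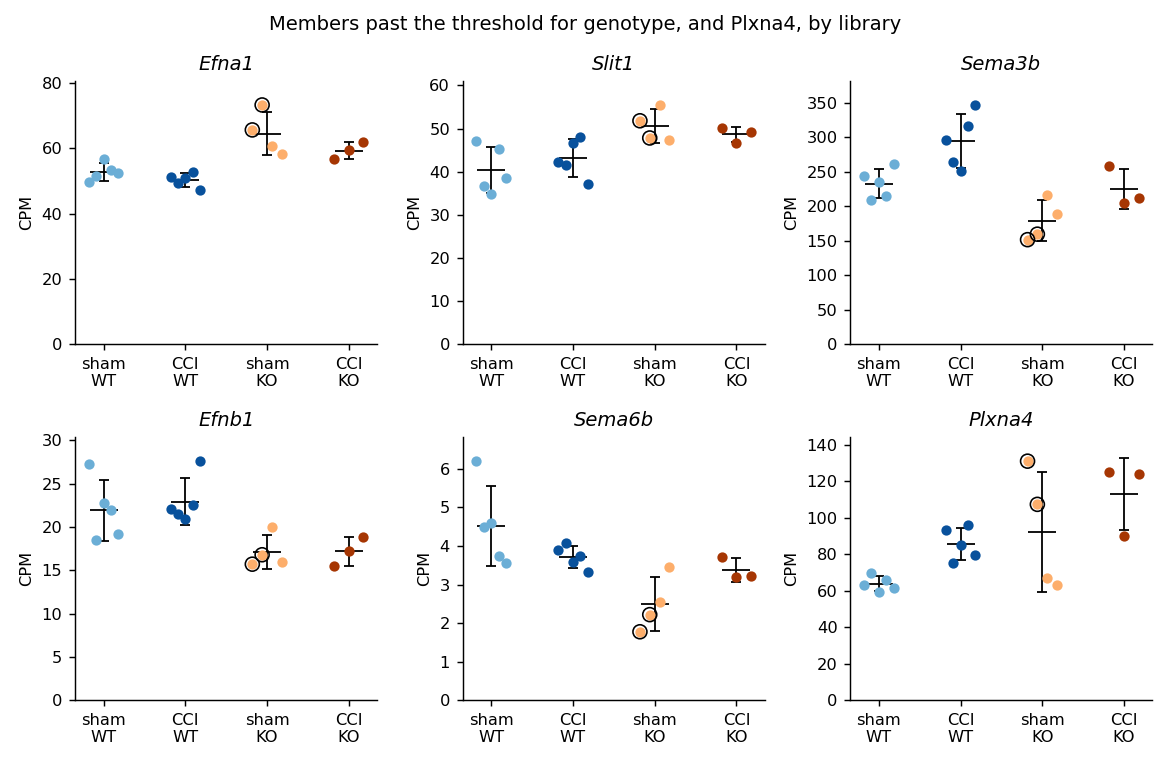
The 5 genes that passed a genotype test and are not in the injury plot, with Plxna4, in CPM by library (points), with the mean and SD of each group (bars); rings mark sham KO libraries 1 and 2. Efna1 lies higher and Efnb1 lower in both KO groups by mean, and the 2 ringed libraries hold the highest Plxna4 and the lowest Sema3b of the sham libraries.

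Markers of myelinating Schwann cells moved with the genotype label: 6 of 8 passed lower in sham, 5 in CCI and 7 on the mean contrast, and none higher. These counts were 1, 5 and 7 without sham KO libraries 1 and 2. Their sum was 9868 to 14122 CPM in sham WT, 10637 to 14760 CPM in CCI WT, 4484 to 6367 CPM in sham KO and 5879 to 7255 CPM in CCI KO. The WT and KO libraries did not overlap in this sum. Melanocyte markers, carried by Tyrp1, summed to 14.7 to 23.2 CPM in WT and 1.46 to 6.78 CPM in KO; Dct and Mlana were at or near 0, and 1 of the 2 tested passed lower in sham, in CCI and on the mean contrast. Skeletal muscle markers summed to 104 to 175 CPM in CCI KO, above the 4.37 to 65.8 CPM of CCI WT, and to 3.10 to 708 CPM in sham KO and 1.85 to 136 CPM in sham WT; none of the 4 passed a test. Satellite glia markers summed to 4164 to 4560 CPM in sham WT, 3278 to 4055 CPM in sham KO, 4727 to 5045 CPM in CCI WT and 4116 to 4478 CPM in CCI KO. Of these 6, 1 passed lower in sham, 1 higher in CCI, and 1 each way on the mean contrast. Without sham KO libraries 1 and 2 the mean contrast had 0 satellite glia markers higher and 1 lower. Fibroblast markers summed to 777 to 864 CPM in CCI KO, below the 970 to 1867 CPM of CCI WT. On the mean contrast 1 of 6 passed lower, and 0 did without sham KO libraries 1 and 2. The part of these cells in the genotype results of the members was not tested.

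Sham KO libraries 1 and 2 were also placed on a scale on which 0 is the sham WT mean and 1 the CCI WT mean of log2(CPM + 1). The median of the 10 injured neuron markers lay at 0.84 and 0.76 in these libraries, and at 0.03 and 0.01 in sham KO libraries 3 and 4. Epha5 (0.73 and 0.82) and Sema4f (0.62 and 0.78) lay closer to the injured side in libraries 1 and 2, and Sema6a (0.52 and 0.30) lay between. Single libraries were widely spread for the first of these genes: Sema4f ran from -1.07 to 0.39 in sham WT and was at 0.13 in CCI KO library 3. Epha5 was at -0.06 in CCI WT library 3. Draxin (0.04 and -0.05) and Plxnb3 (-0.27 and -0.04) lay at the sham WT level. These are values of 2 libraries, without a test. Plxnb3 was also low on this scale in the injured KO libraries, at 0.28, -0.07 and 0.40 in CCI KO libraries 2 to 4, where the marker median was at 1.04, 0.72 and 0.93. Draxin was at 1.01, 0.33 and 0.67 in them.

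**Figure D5:**
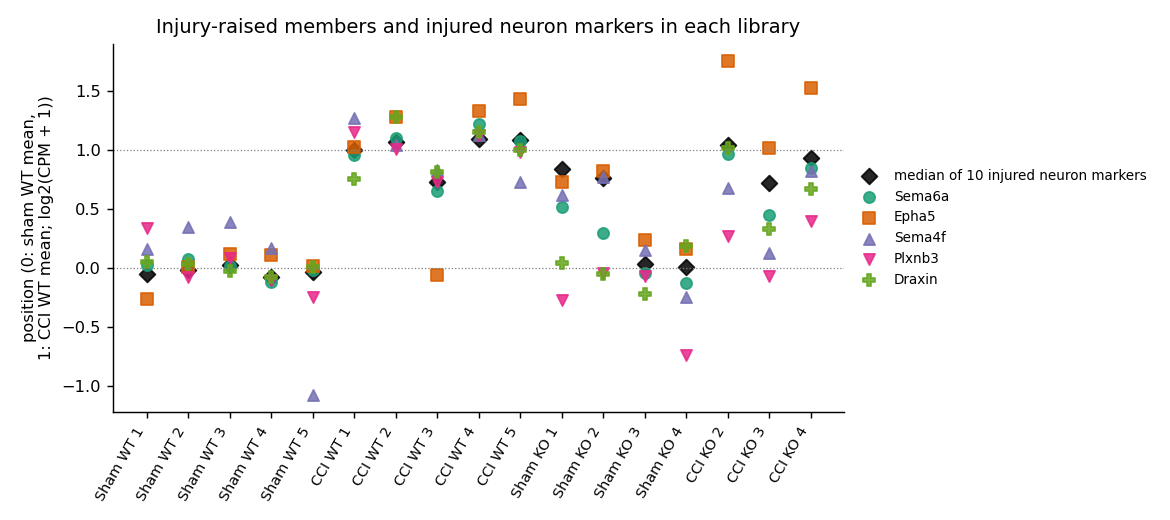
Position of each library on a scale where 0 is the sham WT mean and 1 the CCI WT mean of log2(CPM + 1), for the median of 10 injured neuron markers (black) and for the 5 members that rose after injury in wild type. In sham KO libraries 1 and 2 the marker median is at 0.84 and 0.76, while Draxin is at 0.04 and -0.05.

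The wider pathway was read from a list of 24 co-receptors and further cues and a list of 40 signalling effectors. Of the co-receptors and cues, 3 rose and 1 fell after injury in wild type. Flrt3, a leucine-rich repeat protein that binds Robo1 and Unc5 receptors, went from 27.4 to 38 CPM in sham WT to 71.2 to 142 CPM in CCI WT (log2 fold change 1.89 ± 0.27, adjusted p = 0.00184). Chl1, an adhesion protein that takes part in class 3 semaphorin signalling, rose by 1.24 ± 0.25 (adjusted p = 0.0160) and the integrin subunit Itgb1 by 0.30 ± 0.08 (adjusted p = 0.0427). Boc, a cell surface receptor of hedgehog ligands, fell (-0.41 ± 0.10, adjusted p = 0.0242). No gene of this list passed in the other comparisons.

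Of the effectors, 3 rose after injury in wild type. Rnd1, a small GTPase that binds plexins, went from 1.31 to 2.78 CPM in sham WT to 4.59 to 9.93 CPM in CCI WT, without overlap (1.94 ± 0.25, adjusted p = 8.51e-05). Dock1, an exchange factor for Rac, rose by 0.53 ± 0.12 (adjusted p = 0.0128). Adam10, a membrane protease that cleaves ephrins and that is no cytoplasmic protein, rose by 0.29 ± 0.08 (adjusted p = 0.0456) after injury in wild type. It was the effector lower in the knockout label, at 55.2 to 68.0 CPM in sham KO against 68.2 to 85.1 CPM in sham WT (-0.36 ± 0.09, adjusted p = 0.0372) and by -0.34 ± 0.06 on the mean contrast (adjusted p = 0.00209). Without sham KO libraries 1 and 2 Adam10 was at -0.28 (adjusted p = 0.535) in sham and -0.30 (adjusted p = 0.0297) on the mean contrast. Neither list had a gene past the threshold for injury in the knockout label or for the interaction; without sham KO libraries 1 and 2, each list had 2 genes higher for injury in the knockout label. The median log2 fold change after injury in wild type was -0.01 over the co-receptors and cues and 0.07 over the effectors, beside -0.01 over all genes tested.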

How the data were processed

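Bulk RNA of 17 lumbar DRG samples was extracted with PicoPure and made into libraries with the SMART-Seq v4 kit, per the labels' protocols. The authors deposited raw read counts per gene identifier for each library; bcl2fastq 2.20.0.422, STAR 2.7.11a and the build GRCm39 are named in the submitters' processing notes, and no source used here gives the counter's strand setting or its annotation. Identifiers were matched to GENCODE M39 (78168 of 78298). The unassigned rows were left out of library sizes; reads without a feature made up 4.03 to 4.55% of a library and ambiguous reads 7.63 to 8.17%.

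Counts were fitted with edgeR 4.0.16 in R 4.3.3: TMM factors (0.983 to 1.03), filterByExpr (minimum count 10, minimum total 15), 1 mean per group over all 17 libraries (13 residual degrees of freedom), robust quasi-likelihood F tests and Benjamini-Hochberg adjustment over 23972 genes at 0.05. The common biological coefficient of variation was 0.346. Each SE given with an edgeR log2 fold change was derived from the test, as its absolute value divided by the square root of F. The fit was also run on simulated counts with known fold changes. That run held no injury-like libraries within sham KO, and its outcome is not given here. Alternatives were DESeq2 1.42.0 (test and size factors), limma 3.58.1 voom with quality weights, no low-count filter, a replicate block, and omitted libraries. Levels are CPM from these counts and TMM factors; CPM per kb divides by merged exon length.

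Members and lists were chosen with earlier results of these data known. Named genes were Draxin, Plxna2, every member past the threshold, members among the 10 smallest p-values of a comparison, the 3 highest of each family and list genes past the threshold. Of marker lists not described beside a result, satellite glia also had 1 of 6 genes higher for injury in the knockout label, and sensory neuron markers 1 of 9 higher and 2 lower after injury in wild type. Spinal cord glia, adipocyte and lymphocyte lists had no gene past a test and summed to 8.12 to 84.6, 0.423 to 8.60 and 0.932 to 10.8 CPM over all libraries, and endothelial and pericyte markers to 148 to 264 CPM. The lists without sham KO libraries 1 and 2 were computed as an alternative chosen after seeing the data. Comparisons share control libraries, so none is support for another.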

Additional observations from a re-analysis of the deposited data

Results flagged for a closer look

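Each member was checked in each group of 4 or 5 libraries for 1 library far from the others, its gap to the nearest being above Dixon's 95% critical value. This gave 15 flags in 210 tests, and chance alone flags about 1 in 20. These flags do not bear on whether the injury effect differs between the genotype labels. No member passed that interaction in the main fit, while Plxna2 passed it with DESeq2, with limma-voom and with edgeR without the low-count filter.

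Among receptors, Epha3 was high in sham WT library 4 (4.91 CPM; the others 1.16 to 1.74). Epha5 (12.8 CPM; 14.3 to 14.9) and Epha7 (3.11 CPM; 5.70 to 6.12) were low in sham WT library 1. Robo1 was high in CCI WT library 3 (7.70 CPM; 6.14 to 6.56) and Robo2 in sham KO library 3 (125 CPM; 104 to 106). Nrp1 was high in CCI WT library 3 (78.9 CPM; 70.9 to 72.2) and Nrp2 in sham WT library 3 (57.8 CPM; 46.2 to 49.2). Plxnb2 was low in sham WT library 2 (15.2 CPM; 17.8 to 18.7) and in CCI WT library 3 (18.3 CPM; 21.8 to 22.9).

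Among ligands, Efnb1 was high in CCI WT library 5 (27.6 CPM; 21.0 to 22.5). Efnb2 (14.9 CPM; 20.9 to 21.7) and Ntn5 (1.05 CPM; 2.63 to 2.93) were low in sham KO library 2. Sema3a was high in CCI WT library 2 (0.209 CPM; 0 to 0.0192). Sema4d was high in sham WT library 3 (67.8 CPM; 52.4 to 55.4), and Sema4f was low in sham WT library 5 (42.7 CPM; 57.2 to 60.3).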

How the results depend on the processing

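The count of members past the threshold for injury in wild type was 6 and stayed at 6 to 9 under every alternative, and at 4 to 7 when each library was left out in turn. Injury in the knockout label called 1 member, and 3 without the low-count filter, 2 with DESeq2, 0 with limma-voom, 2 without sham KO libraries 1 and 2, and 0 to 1 when each library was left out in turn. Genotype in sham called 2, and 5 without the filter, 5 with DESeq2, 0 without sham KO libraries 1 and 2 and 0 to 5 leaving out each library. Genotype in CCI called 2, and 7 without the filter, 5 with DESeq2, 4 with limma-voom and 0 to 3 leaving out each library. The interaction called 0, and 1 without the filter, 1 with DESeq2 and 1 with limma-voom, Plxna2 each time. The mean genotype contrast called 5, and 14 without the filter, 13 with DESeq2, 12 with limma-voom and 2 to 11 leaving out each library. Shares of all genes called in the main fit stand beside the results above. Those of the alternatives, the replicate block and the single omissions are not given here, so these counts are not read as a result about the members. No named value changed sign while past the threshold. The dependence was read over 174 pairs of named gene and comparison, most of which did not pass in the main fit. With DESeq2 size factors, whether a pair passed or not was the same in all 174. Without the filter 46200 genes entered the fit; the cause of its higher counts was not tested. Depth limits Sema3a, Dcc, Epha1 and Robo3.

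Replicate numbers were shared between groups. The 22 same-numbered pairs correlated at -0.01 to 0.12 in their deviations from the group means, with a median of 0.02 and 1 above 0.1. The 85 pairs of unlike number ran from -0.17 to 0.11, with a median of -0.01 and 1 above 0.1. Of 17 libraries, 6 matched best with their own number. Low correlations cannot exclude pairing, and the main fit took the libraries as unpaired. With the replicate number as a block, genotype in sham called 0 members and genotype in CCI 1. Over the 174 pairs of named gene and comparison, 5 calls were lost and 1 was gained. Most of these pairs were not called in the main fit, so the 5 are a larger part of the calls made.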

Other observations

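Mad2l2 (ENSMUSG00000029003; chr4:148214560-148230434, plus strand), a subunit of the error-prone DNA polymerase zeta, overlaps the 5′ end of Draxin head to head with no exon shared between them. It was chosen after the Draxin window had been read. It rose after injury in wild type, with a log2 fold change of 0.44 ± 0.10 (adjusted p = 0.0167), and was at 0.27 ± 0.13 in the knockout label (adjusted p = 0.550), beside 3.19 and 2.43 for Draxin. The library kit does not mark strand, so transcripts that read across the shared start region cannot be told apart by strand.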
